A study of Sus scrofa with 12 samples.

Results

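Zinc transporters and metallothioneins were described in the jejunum of sucking and weaned piglets. The list held 10 genes: the metallothioneins MT2A and MT1A, the zinc importers SLC39A4, SLC39A5, SLC39A13 and SLC39A14, and the zinc exporters SLC30A1, SLC30A2, SLC30A5 and SLC30A10. Members were taken by gene name from the deposited table of 41264 rows with 17049 different gene names, and rows of the same name were summed. Of the 10 genes, 7 were found, in 8 rows, because SLC30A1 had 2 rows. MT1A, SLC39A5 and SLC30A10 matched no row by name and have no value here. All 7 genes found passed the filter on low values.

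Jejunum RNA of 12 piglets was sequenced as poly(A) libraries, with 3 piglets in each of 4 groups. W_Con were sucking piglets, taken at the age of 21 days when weaning began. PW_Con were weaned piglets, taken 7 days later at the age of 28 days. Sows of both groups received a corn and soybean meal diet. W_Res and PW_Res were piglets of the same ages whose sows ate that diet with 300 mg/kg resveratrol, a plant polyphenol, through most of gestation and lactation. No genetic change was named for any animal, and litters were evened out by fostering within a maternal diet. The sources differ on the breed and on whether weaned piglets changed rooms. By the study's methods each litter gave a piglet at both ages, so that sucking and weaned control piglets may be littermates, but no label says which. Every weaned piglet was also 7 days older, so that weaning and age cannot be told apart and a difference after weaning is one between both, and a whole-tissue level does not separate fewer cells of a type from less RNA per cell.

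Dietary zinc enters enterocytes, the absorptive cells of the villus, through importers of the SLC39 (ZIP) family, which bring zinc into the cytosol from outside the cell or from organelles. Exporters of the SLC30 (ZnT) family move zinc out of the cytosol, into the blood or into vesicles. Metallothioneins are small cysteine-rich proteins that bind zinc and copper in the cytosol, and their transcription rises with zinc through the zinc-sensing factor MTF1. Weaning replaces milk with solid feed, and with it the source of dietary zinc.

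Levels were given as FPKM, fragment numbers divided by exon length and by the mapped fragments of a library, and can be compared between genes because they are per length. Summed FPKM was 313171 to 334469 per library. The number of read fragments behind a gene is unknown, since the table holds no counts. Differences were tested with limma on log2(FPKM + 1), and this scale understates the change of low genes. A gene met the standard of the study when its unadjusted P was under 0.05 and its log2 fold change was above 1 or below -1. These limits are the study's, and P was that of limma unless another model is named. W_Res2 and W_Res3 stood apart by a higher median over all rows (1.12 and 0.836 FPKM, against 0.238 to 0.479 in the other libraries). The summed level of 5 smooth muscle markers was 1517 and 3352 FPKM in W_Res1 and W_Res2, 359 in W_Res3, and 95.0 to 385 in the 9 remaining libraries. Markers of distal small intestine, led by bile acid handling genes, summed to 65.6 to 24538 FPKM and varied within groups. Markers of villus enterocytes were present in every library, at 923 to 4221 FPKM summed over the 5 of 8 markers found.

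Among the transporters found, SLC39A14 had the highest and SLC30A2 the lowest mean level in each of the 4 groups, at 29.5 to 57.9 and at 0.582 to 0.965 FPKM. The order of the other transporters changed with the group. In W_Con it was SLC39A4 (19.2 ± 7.16 FPKM, SD), SLC30A5 (9.58 ± 0.654), SLC30A1 (5.92 ± 1.69) and SLC39A13 (3.22 ± 0.866). In PW_Con it was SLC39A13 (10.7 ± 0.585), SLC30A1 (8.75 ± 3.94), SLC39A4 (6.36 ± 4.07) and SLC30A5 (5.79 ± 0.787), where SLC30A1, SLC39A4 and SLC30A5 did not differ beyond their spread. The first place of SLC39A13 (10.3 to 11.4 FPKM) also lay within the spread of SLC30A1 and SLC39A4, which reached 13.3 and 11.1 FPKM. In W_Res and PW_Res SLC39A4 came first of these by its mean, and SLC39A13, SLC30A5 and SLC30A1 did not differ beyond their spread, at 5.42 to 7.63 FPKM. In PW_Res this first place lay within the spread, since SLC39A13 reached 8.89 FPKM and SLC39A4 was at 7.40 to 8.81 FPKM. The place of MT2A also changed with the group. Its mean was below those of SLC39A14 and SLC39A4 in W_Con (7.93, against 39.5 and 19.2 FPKM), between them in W_Res (30.6, against 57.9 and 20.4 FPKM) and above both in PW_Con and PW_Res, although MT2A was below SLC39A14 in PW_Con3.

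MT2A, the metallothionein measured here, rose after weaning in the litters of both maternal diets. In W_Con it was at 10.3, 8.78 and 4.73 FPKM, and in PW_Con at 185, 285 and 20.5 FPKM. In W_Res it was at 9.13, 24.1 and 58.6 FPKM, and in PW_Res at 1149, 180 and 239 FPKM. Every weaned piglet was above every sucking piglet of the same maternal diet. Across the diets the ages overlapped, because PW_Con3 at 20.5 FPKM lay below W_Res2 and W_Res3. The group means were 7.93 ± 2.87 (SD, n = 3) in W_Con, 163 ± 134 in PW_Con, 30.6 ± 25.4 in W_Res and 523 ± 543 FPKM in PW_Res. The spread within the weaned groups was wide, with the highest library, PW_Res1, at 1149 FPKM.

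The log2 fold change of MT2A at 28 days against 21 days was 3.61 (SE 0.90) in control litters and 3.90 (SE 0.83) in resveratrol litters. The 95% intervals were 1.50 to 5.71 and 1.96 to 5.83, and the limma adjusted p over all genes was 0.141 and 0.311. Over all 12 libraries, with maternal diet as a term, the log2 fold change was 3.75 (SE 0.66, limma adjusted p = 0.0554). It was the second largest rise among 12886 genes tested, at rank 2. In control litters it was 2.88 without PW_Con2 (limma adjusted p = 0.274), 3.19 without PW_Con1 (limma adjusted p = 0.257) and 4.75 without PW_Con3 (limma adjusted p = 0.0358). Over all libraries it was 4.27 without PW_Con3 (limma adjusted p = 0.0167). Over all alternatives run the adjusted p of limma or of the model named next was 0.0358 to 0.328 in control litters and 0.0167 to 0.153 over all libraries. In a Ballgown-style model, which has no moderation and a library covariate, MT2A no longer met the standard in control litters (3.68) or in resveratrol litters (4.88). The difference between the diets in the weaning change was 0.29 (95% interval -2.72 to 3.30), so that it was not resolved at this number of piglets. The distal marker sum was 8253, 1357 and 65.6 FPKM in W_Con and 9949, 9098 and 6748 FPKM in PW_Con. It was 241, 77.0 and 6371 FPKM in W_Res and 24538, 106 and 124 FPKM in PW_Res. PW_Res1 was thus highest in both the distal markers and MT2A, W_Con3 was lowest in both, and W_Res3 had the highest MT2A of the sucking piglets and the highest distal sum of its group. PW_Res2 and PW_Res3 had low distal sums with high MT2A, and W_Con1 had a high sum with low MT2A. Single markers also differed between the ages, and not all of their lists went the same way. TFF3, a peptide secreted by goblet cells, was higher at 28 days in control litters (1.26, limma adjusted p = 0.159) and over all libraries (1.05, limma adjusted p = 0.165), where it met the standard, and it was at 0.84 in resveratrol litters. SLC51A, a bile acid exporter among the distal markers, met the standard in control litters alone (1.26, limma adjusted p = 0.173). The B cell marker CD79B met it upward there too (2.05, limma adjusted p = 0.279), and was at -0.28 in resveratrol litters. Of the 8 lymphocyte markers tested in control litters, 3 had a log2 fold change below 0. Among these were the T cell markers CD3E (-0.74) and CD3D (-0.63). Of the 4 goblet cell markers tested, 1 was below 0. The villus marker FABP2 (-2.20, limma adjusted p = 0.117) and the proximal marker FABP1 (-2.11, limma adjusted p = 0.170) met the standard downward in control litters. Over all libraries FABP2 met it as well (-1.31, limma adjusted p = 0.211). In resveratrol litters the 5 smooth muscle markers tested fell, at -2.76 to -1.59. The part of the distal and other markers in the MT2A level was not tested.

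**Figure D1:**
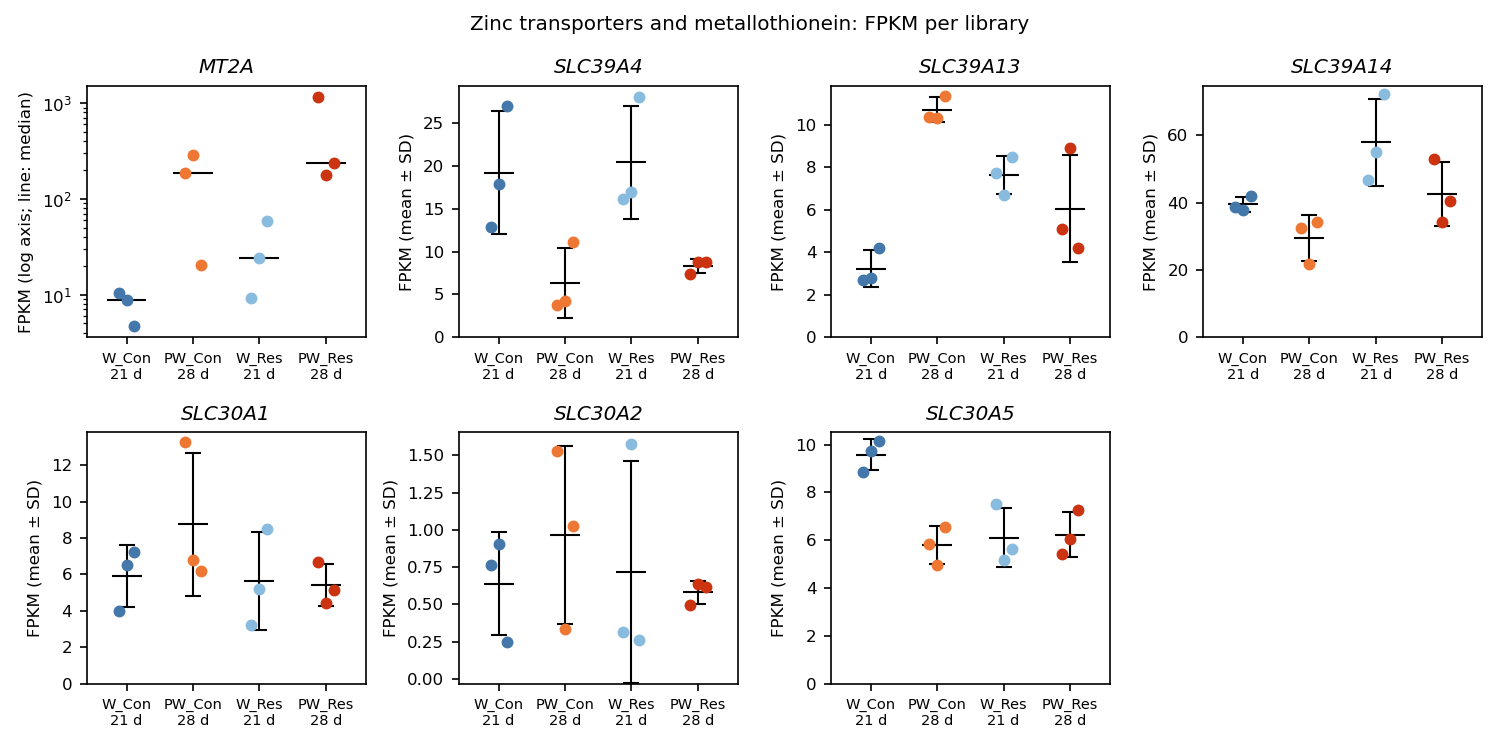
FPKM of the 7 genes in each library, with points for piglets and groups in the order W_Con, PW_Con, W_Res and PW_Res. Bars are the mean ± SD (n = 3), and MT2A has a log axis with a line at the median. MT2A is higher and SLC39A4 lower in both weaned groups than in the sucking group of the same maternal diet.

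The rows numbered directly after MT2A in the table followed its pattern in part. They were singled out after their values were seen. There are 3 such rows known only by Ensembl identifiers, each annotated in the table with metal ion binding, and the files give none of them a gene name. Row numbers largely follow genome order, since 99.8% of 7348 consecutive pairs with known symbols lie on 1 chromosome in RefSeq (Sscrofa11.1). In that assembly 7 protein-coding genes lie between BBS2 and NUP93, of which 5 are named as metallothioneins, and BBS2 also follows MT2A here at 5 rows' distance. The table does not say which of these genes the 3 rows are. Metallothionein genes can be similar in sequence, which was not compared here. Reads could have been divided between similar copies in the counting, so that each level is uncertain.

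ENSSSCG00000023684 was at 0.502 to 22.9 FPKM in the 6 sucking piglets. It was at 141, 304 and 4.39 FPKM in PW_Con and at 1135, 79.5 and 134 FPKM in PW_Res. Its libraries kept nearly the order of MT2A, and Pearson's r with MT2A on the log2(FPKM + 1) scale was 0.993 over 12 libraries that share age groups. ENSSSCG00000024911 had an r of 0.991 at lower levels, from 0.0812 to 85.4 FPKM. ENSSSCG00000023305 was at 422 FPKM in PW_Res1 and at 0 to 1.31 FPKM in all other libraries. BBS2, which acts in cilia, had an r of 0.0748. When MT2A was summed with the 3 rows, the weaning log2 fold change was 4.11 for control and 4.30 for resveratrol litters, and 4.20 over all libraries, with limma adjusted p-values of 0.148, 0.311 and 0.065.

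**Figure D2:**
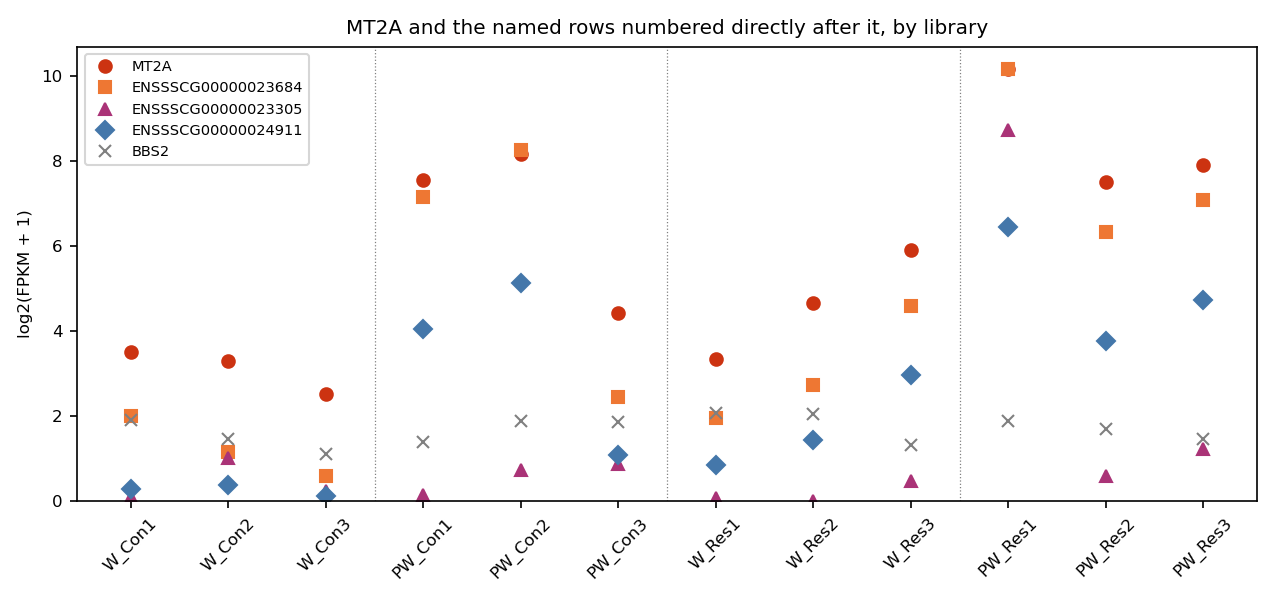
Level on the log2(FPKM + 1) scale (vertical axis) of MT2A, the 3 rows after it with metal ion binding as annotation, and BBS2, in each of the 12 libraries (horizontal axis). ENSSSCG00000023684 and ENSSSCG00000024911 move with MT2A, ENSSSCG00000023305 is high in PW_Res1 alone, and BBS2 stays between 1.13 and 3.19 FPKM.

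SLC39A4, the importer that takes up dietary zinc at the apical membrane of enterocytes, fell after weaning in both kinds of litters. It was at 12.8, 17.9 and 26.9 FPKM in W_Con and at 3.77, 4.26 and 11.1 FPKM in PW_Con. It was at 16.2, 17.0 and 28.0 FPKM in W_Res and at 7.40, 8.81 and 8.77 FPKM in PW_Res. All 6 weaned piglets were below all 6 sucking piglets, which was so in either direction for 1.58% of all genes tested. The log2 fold change was -1.53 (SE 0.41, limma adjusted p = 0.153) in control litters and -1.16 (SE 0.25, limma adjusted p = 0.311) in resveratrol litters. Over all 12 libraries it was -1.35 (SE 0.25, limma adjusted p = 0.065), and -1.51 with a limma adjusted p of 0.0327 without PW_Con3, the lowest of a range of 0.0327 to 0.172 over the alternatives run. In resveratrol litters it was -0.92 without W_Res3 and -0.97 after median-of-ratios rescaling, both short of the fold limit. The weaning change differed between the diets by 0.37 (95% interval -0.76 to 1.50). The villus marker sum, most of it from ANPEP and VIL1, overlapped between the ages, at 923 to 4221 FPKM in sucking and 1446 to 3401 FPKM in weaned piglets. Single markers moved with SLC39A4 in control litters. Of the 5 villus markers tested there, 4 had a log2 fold change below 0, and FABP2, a fatty acid carrier of enterocytes, met the standard at -2.20 (limma adjusted p = 0.117). All 5 proximal markers had a log2 fold change below 0, and FABP1 met the standard at -2.11 (limma adjusted p = 0.170). Over all 12 libraries FABP2 met the standard as well, at -1.31 (limma adjusted p = 0.211), and FABP1 did not, at -0.96. In resveratrol litters none of these markers met it, with no unadjusted P under 0.05 in limma, and FABP2 was at -0.43 and FABP1 at 0.19. VIL1, a structural protein of the brush border, was higher there after weaning without overlap, at 0.85 (limma adjusted p = 0.402), while SLC39A4 was lower. The 5 smooth muscle markers tested fell in the same resveratrol litters, at -2.76 to -1.59, and all met the standard. The part of these markers in the SLC39A4 level was not tested.

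SLC39A13, an importer of intracellular membranes known for its role in connective tissue, differed in its weaning change between the maternal diets. It was at 2.68, 2.76 and 4.22 FPKM in W_Con and at 10.4, 10.3 and 11.4 FPKM in PW_Con. It was at 7.71, 6.70 and 8.49 FPKM in W_Res and at 5.09, 8.89 and 4.17 FPKM in PW_Res. The control groups did not overlap, and the means of both resveratrol groups lay between theirs. The resveratrol groups overlapped each other, and PW_Res3 at 4.17 FPKM lay just below the highest W_Con library at 4.22 FPKM. In control litters SLC39A13 rose with a log2 fold change of 1.49 (SE 0.20, limma adjusted p = 0.117). In the same comparison TFF3, SLC51A and the B cell marker CD79B (2.05, limma adjusted p = 0.279) met the standard upward. FABP2 and FABP1 met it downward. In the lists of TFF3 and CD79B, 1 of 4 goblet cell and 3 of 8 lymphocyte markers tested were below 0. The part of these markers in the rise was not tested. The study had listed SLC39A13 from these same control libraries, so that this rise is not independent evidence. In resveratrol litters the log2 fold change was -0.34 (SE 0.28), and over all 12 libraries it was 0.57 (SE 0.31). The value in resveratrol litters was -0.15 without PW_Res3, -0.62 without PW_Res2, -0.16 after median-of-ratios rescaling, -0.18 after quantile normalization and -0.83 in the Ballgown-style model. In resveratrol litters the 5 smooth muscle markers tested were also lower at 28 days, at -2.76 to -1.59, and all met the standard. The difference between the 2 weaning changes was -1.83 (SE 0.34, 95% interval -2.58 to -1.08, limma adjusted p = 0.251). The same 5 markers met the standard for this difference too, at -3.27 to -2.10. Of other markers, 1 of 5 proximal ones met it upward. Of 8 lymphocyte and 4 inflammation markers tested, 1 each met it downward. The part of all these markers in the difference was not tested.

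SLC39A14, an importer of zinc that also carries iron and manganese, had a mean of 42.3 FPKM over the 12 libraries. It was at 38.7, 37.7 and 42.0 FPKM in W_Con and at 32.3, 21.7 and 34.3 FPKM in PW_Con. In W_Res it was at 46.7, 54.9 and 72.1 FPKM, and in PW_Res at 52.9, 34.1 and 40.5 FPKM. The control groups did not overlap, whereas the resveratrol groups did. The log2 fold change after weaning was -0.44 in control litters (SE 0.20), in resveratrol litters (SE 0.26) and over all 12 libraries (SE 0.16, limma adjusted p = 0.222), and none met the standard. The value was -0.24 without PW_Con2 in control litters. In resveratrol litters it was -0.27 without W_Res3, -0.29 without PW_Res2, -0.16 without W_Res2 and W_Res3, and -0.23 after median-of-ratios rescaling.

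Of the 3 exporters found, none met the standard in a weaning comparison, against 3.31%, 4.75% and 1.34% of all genes in control litters, resveratrol litters and both, and at these shares a count of 0 among 3 is no result about exporters. SLC30A5, which loads zinc into the secretory pathway, was at 8.86, 9.74 and 10.1 FPKM in W_Con and at 5.86, 4.97 and 6.54 FPKM in PW_Con. It was at 7.50, 5.18 and 5.62 FPKM in W_Res and at 5.40, 6.04 and 7.25 FPKM in PW_Res. W_Con stood above all other groups without overlap. The log2 fold change after weaning was -0.64 in control litters (SE 0.17, limma adjusted p = 0.149). It was 0.03 for resveratrol litters (SE 0.22) and -0.31 over all libraries (SE 0.16), all within the fold limit. The difference between the diets was 0.68 (SE 0.26, 95% interval 0.11 to 1.24, limma adjusted p = 0.299), and 0.40 without W_Res2 and W_Res3. The smooth muscle markers moved in this difference too, and of 8 lymphocyte markers 1 met the standard, over a range of -2.33 to 0.84. So did 1 of 5 proximal and 1 of 4 inflammation markers tested. Their part was not tested.

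SLC30A1, the exporter of the basolateral membrane that passes zinc on to the blood, was at 4.02, 6.53 and 7.22 FPKM in W_Con and at 13.3, 6.78 and 6.17 FPKM in PW_Con. It was at 3.21, 5.23 and 8.52 FPKM in W_Res and at 6.69, 4.46 and 5.12 FPKM in PW_Res. The groups overlapped throughout. Most of this level came from a row with no annotated transcript, at 2.69 to 11.4 FPKM, and the row with an annotated transcript was at 0.0966 to 2.24 FPKM. The log2 fold change after weaning was 0.45 in control litters (SE 0.32, 95% interval -0.30 to 1.21, with 0.14 without PW_Con1 and 0.24 without W_Con1). It was 0.01 in resveratrol litters (95% interval -0.75 to 0.77) and 0.23 over all libraries (95% interval -0.29 to 0.76), so that in control litters a change past the fold limit lies within the interval. SLC30A2, which fills zinc vesicles in secretory cells, was low at 0.246 to 1.57 FPKM, and its row holds no annotated transcript. Its log2 fold change was 0.24 in control litters (SE 0.30, with 0.03 to 0.49 without single libraries), -0.04 in resveratrol litters (95% interval -0.81 to 0.74) and 0.10 over all libraries (95% interval -0.38 to 0.58).

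By the standard of the study, with P from limma, MT2A, SLC39A4 and SLC39A13 differed between the ages in control litters. These were 3 of the 7 genes with values, against 3.31% of 12611 genes tested. MT2A is annotated with the mineral absorption pathway. The paper did not name it among the raised genes of that pathway in these control libraries. MT2A and SLC39A4 differed in resveratrol litters, against 4.75% of 13013 genes, and over all libraries, against 1.34% of 12886 genes. Control groups did not overlap for 5 of the 7 genes, against 25.3% of all genes tested. Resveratrol groups did not overlap for 2, against 21.8%. No member had a limma adjusted p under 0.05 in these comparisons, against 0%, 0.00768% and 0.0621% of all genes. At an unadjusted P under 0.05 there were 4 members in control litters (17.7% of all genes), 2 in resveratrol litters (13.3%) and 3 over both diets (16.9%). The median log2 fold change of the 7 genes was 0.24, -0.04 and 0.10 in turn, beside -0.02, -0.16 and -0.10 over all genes tested.

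**Figure D3:**
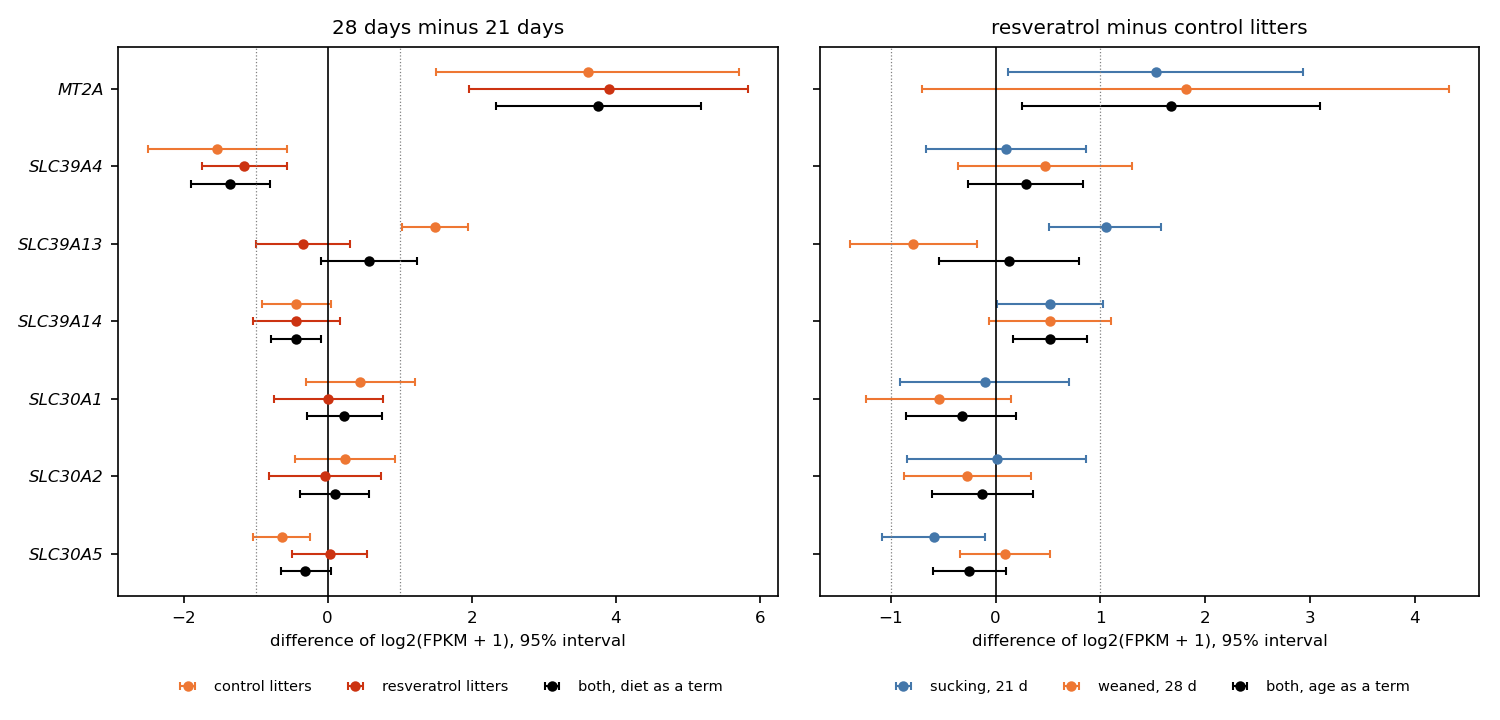
Difference of log2(FPKM + 1) with its 95% interval for the 7 genes, at 28 against 21 days (left) and in resveratrol against control litters (right), with dotted lines at the fold limits of -1 and 1. The weaning intervals of MT2A lie above 0 and those of SLC39A4 below 0 in both kinds of litters, and SLC39A13 has opposite signs in control and resveratrol litters in the left panel.

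Maternal resveratrol was compared at each age. At 21 days SLC39A13 was higher in W_Res than in W_Con without overlap, with a log2 fold change of 1.05 (SE 0.23, limma adjusted p = 0.317). It was 0.96 without W_Con1, 0.97 without W_Con2, 0.98 without W_Res3, 0.96 after median-of-ratios rescaling and 0.93 after quantile normalization, each short of the fold limit. The smooth muscle markers were higher in W_Res as well, where 5 of the 5 tested met the standard. Within W_Res their sum was lowest in W_Res3 (359 FPKM), where SLC39A13 was highest (8.49 FPKM). It was highest in W_Res2 (3352 FPKM), where SLC39A13 was lowest (6.70 FPKM). The part of these markers in the SLC39A13 level was not tested. At 28 days SLC39A13 was lower in PW_Res than in PW_Con without overlap, with a log2 fold change of -0.79 (SE 0.26, limma adjusted p = 0.404), and of -1.06 without PW_Res2. The cell division marker TOP2A (-1.11, limma adjusted p = 0.206) and the inflammation marker CXCL8 (-1.25, limma adjusted p = 0.394) met the standard downward in that comparison. The proximal marker CYBRD1 met it upward (1.94, limma adjusted p = 0.422). These were 1 of 5 cell division, 1 of 4 inflammation and 1 of 5 proximal markers tested. In those lists 2, 1 and 2 markers in turn had the opposite sign. The part of TOP2A, CXCL8 and CYBRD1 in the SLC39A13 level was not tested.

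MT2A was also higher in W_Res than in W_Con, with overlapping values and a log2 fold change of 1.53 (SE 0.60, limma adjusted p = 0.363). MT2A no longer met the standard after median-of-ratios rescaling. The call also rested on single libraries: P was above 0.05 without W_Con2 (1.62), W_Con3 (1.23), W_Res2 (1.52) or W_Res3 (0.89), and the log2 fold change was 0.24 without W_Res2 and W_Res3 together. At 28 days it was 1.82 (SE 1.07, 95% interval -0.70 to 4.33), with 0.68 without PW_Con3, 0.99 without PW_Res1 and 4.03 in the Ballgown-style model. With age as a term it was 1.67 over both ages (SE 0.66, limma adjusted p = 0.426), and it missed the standard without W_Con3 (1.56), W_Res3 (1.41), PW_Con3 (1.15) or PW_Res1 (1.29).

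SLC39A14 was higher in W_Res than in W_Con without overlap, and the log2 fold change was 0.52 (SE 0.22, limma adjusted p = 0.372). At 28 days it was also 0.52 (SE 0.25), and over both ages 0.52 (SE 0.16, limma adjusted p = 0.311), all inside the fold limit. SLC30A5 was lower in W_Res than in W_Con without overlap, at -0.59 (SE 0.21, limma adjusted p = 0.351), and at -0.31 without W_Res2 and W_Res3. Cell type markers differed in the same libraries. The 5 smooth muscle markers tested were higher in W_Res, at 1.66 to 2.80. Of 6 lymphocyte markers tested, the T cell markers CD3E (-1.78, limma adjusted p = 0.249) and CD3D (-1.97, limma adjusted p = 0.304) were lower without overlap and met the standard, while the B cell markers CD79A (0.41) and CD79B (0.85) were higher without overlap and did not meet it. PTPRC, also from that list, was lower without overlap (-0.85, limma adjusted p = 0.344) and did not meet it. The villus markers tested were at -0.89 to -0.30 and none met the standard, with VIL1 lower without overlap (-0.76). The part of these markers in the levels of SLC30A5, SLC39A14 and MT2A was not tested. By the standard of the study 2 of the 7 genes differed between the diets at 21 days, against 4.47% of 13186 genes, none at 28 days, against 1.81% of 12380 genes, and 1 over both ages, against 0.892%. For the difference between the diets in the weaning change 1 gene, SLC39A13, met the standard, against 7.76% of 12886 genes. Groups did not overlap for 3 genes at 21 days, against 21.0% of all genes, and for 1 at 28 days, against 17.3%. Over both ages none stood apart, against 0.729%. At an unadjusted P under 0.05 there were 4 members at 21 days (13.3% of all genes), 1 at 28 days (10.2%), 2 over both ages (10.4%) and 2 for the difference between diets (13.7%). None had a limma adjusted p under 0.05, against 0%, 0.00808%, 0.0621% and 0% of all genes. The comparisons of age and of diet share their libraries.

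Other zinc transporters were given from a list of 17 genes, of which 11 were found and 9 passed the filter. None of the 9 met the standard in control litters or over all libraries, and 1 met it in resveratrol litters, against the 3.31%, 1.34% and 4.75% of all genes given above. An unadjusted P under 0.05 was found for 2 genes in control and for 1 in resveratrol litters, against 17.7% and 13.3% of all genes, and for 2 over both diets, against 16.9%. None had a limma adjusted p under 0.05. The direction was downward in 7 of the 9 in each of the 3 comparisons, with medians of -0.29, -0.33 and -0.33, beside -0.02, -0.16 and -0.10 over all genes tested. In resveratrol litters it was downward in 5 of the 9 after median-of-ratios rescaling and in 6 after quantile normalization, where the medians were -0.19 and -0.04. The numbers were 7 and 6 in control litters, and 7 and 5 over both diets. The gene that met the standard was SLC39A8, an importer of zinc, manganese and cadmium. It was at 1.66, 2.12 and 8.79 FPKM in W_Res and at 1.59, 0.526 and 0.658 FPKM in PW_Res, with a log2 fold change of -1.21 (SE 0.51, limma adjusted p = 0.370). It was at 0.474 to 1.02 FPKM in the control litters, its highest value was in W_Res3, and after either rescaling (-1.10 and -0.90) it no longer met the standard. The 5 smooth muscle markers tested met it downward in the same comparison, at -2.76 to -1.59. Within W_Res their sum was 1517, 3352 and 359 FPKM, lowest in W_Res3, where SLC39A8 was highest. The part of these markers in the SLC39A8 level was not tested.

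**Figure D4:**
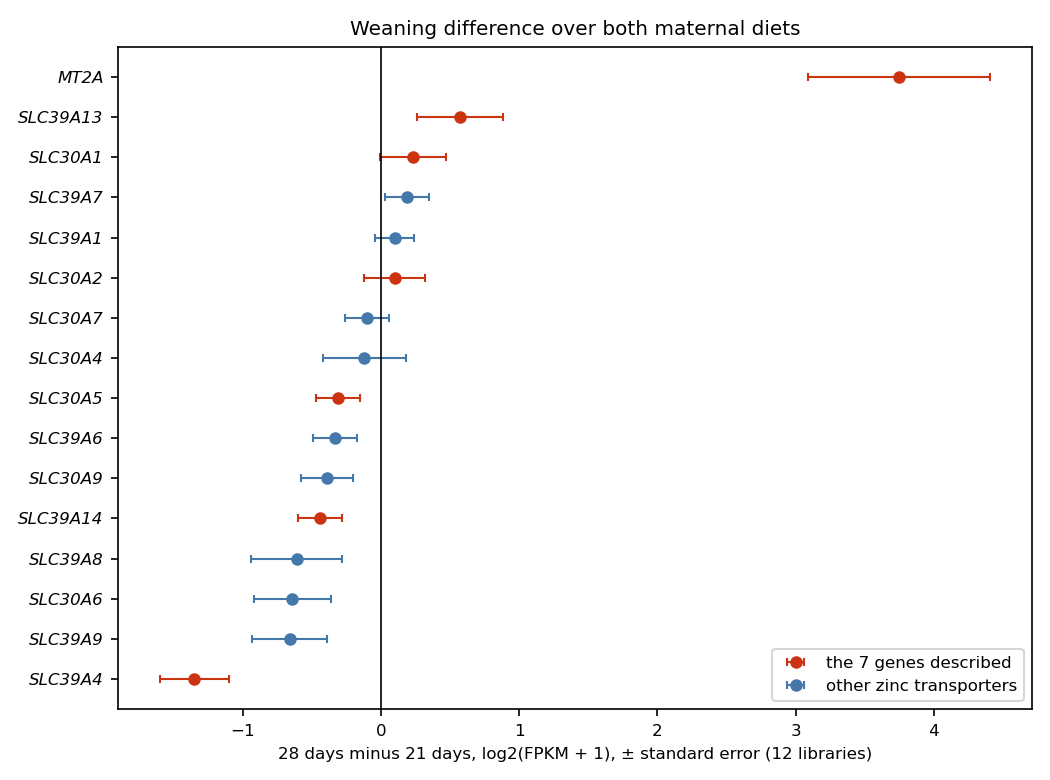
Difference of log2(FPKM + 1) at 28 against 21 days over 12 libraries, with maternal diet as a term, for the 7 genes described and 9 other zinc transporters. Bars are standard errors. MT2A lies highest at 3.75 and SLC39A4 lowest at -1.35, and the others lie between -0.66 and 0.57.

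Among 14 zinc-dependent enzymes of the gut, 12 were tested. SOD3, the extracellular superoxide dismutase that carries copper and zinc, met the standard in control litters, and the study had named it from these libraries. It was at 4.75, 2.94 and 2.57 FPKM in W_Con and at 9.00, 13.3 and 24.2 FPKM in PW_Con, with a log2 fold change of 1.83 (SE 0.36, limma adjusted p = 0.117). In resveratrol litters its log2 fold change was -0.06 (SE 0.34). The difference between the diets was -1.89 (SE 0.53, limma adjusted p = 0.251), beside the smooth muscle and other markers given with SLC39A13. ACE, the zinc peptidase of the brush border, was lower over all libraries, with a log2 fold change of -1.42 (SE 0.62, limma adjusted p = 0.275). Its levels overlapped between the ages, at 27.1 to 184 FPKM in sucking and 3.99 to 54.4 FPKM in weaned piglets. By the standard 1 of the 12 enzymes was called in control litters, none in resveratrol litters and 1 over both diets, and of 5 copper handling genes none was called, against 3.31%, 4.75% and 1.34% of all genes. At an unadjusted P under 0.05 in limma there were 1, 1 and 3 enzymes and 0, 0 and 1 copper handling genes, against 17.7%, 13.3% and 16.9%.

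The gene symbols whose pattern was most like a member were found by Pearson's r over the 12 libraries, given as a description. The search covered 7738 symbols with a mean of at least 1 FPKM and left out rows known only by an Ensembl identifier. ENSSSCG00000023684 and ENSSSCG00000024911, described above, were therefore not in it, and their r with MT2A was higher than that of any symbol. Among symbols the closest to MT2A were ACTN4 (r = 0.885), ISG12(A) (0.879) and CDHR5 (0.871). For SLC39A14 they were MYLIP (0.868), MAT2B (0.861) and SLC25A44 (0.857). For SLC30A5, the exporter with the highest mean over the 12 libraries (6.92 FPKM, with SLC30A1 at 6.44 within its spread), they were COPB2 (0.918), ATP6V1E1 (0.896) and ARFGEF2 (0.889).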

How the data were processed

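The authors deposited 1 table of FPKM per gene for 12 libraries, made from paired-end reads. The paper names TopHat, StringTie and Ballgown, whereas the submitters' processing notes name HISAT2 2.0, Bowtie 0.12.2 and StringTie 1.3.0, with the builds Sscrofa10.2 and mm8. Libraries were not further scaled as far as is stated, and the table holds no read counts, so the depth behind a gene's value is unknown. Read totals that the study gives for sucking and weaned libraries of its own naming were not used here. The samples the paper lists tie those names to W_Con and PW_Con by group, but no label ties a name to a single library. By the paper, the share of reads mapped to multiple places was higher in each weaned than in each sucking library. Rows with a gene name (23614) were summed by name, and the 17650 rows without one were left out. Values were analysed as log2(FPKM + 1) with limma 3.58.1 (lmFit, eBayes with a trend) in R 4.3.3, keeping genes whose mean in a fit reached 0.5 FPKM, with Benjamini-Hochberg adjustment over all genes tested. Each comparison of 2 groups used its 6 libraries. The comparisons over both diets or both ages used all 12, with the other factor as a term, and the difference between diets was an interaction. The script was tested on simulated data with known changes.

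All members are named whatever their values, as are the 3 genes most like MT2A and most like the highest SLC39 and SLC30 member. List genes could be named where they met the standard in a weaning comparison. The members and lists were chosen with earlier results of these data known. The labels give 3 biological replicates per group. The alternatives were the highest row per name, a pseudocount of 0.1, no filter, a filter at 5 FPKM, median-of-ratios rescaling, quantile normalization, no trend, a replicate block, a Ballgown-style model, all 12 libraries in 1 fit, and leaving out each replicate. Leaving out W_Res2 and W_Res3 together and summing MT2A with the rows after it were added after seeing the data. Sequences, the microbiota and the short-chain fatty acids were not analysed here.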

Additional observations from a re-analysis of the deposited data

Results flagged for a closer look

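The weaning change of SLC39A13 differed between the maternal diets by -1.83 on the log2 scale (limma interaction, adjusted p = 0.251). It was 1.49 in control and -0.34 in resveratrol litters, and resveratrol litters were above control litters at 21 days and below them at 28 days. The difference was -2.10 to -1.64 when single libraries were left out. The 5 smooth muscle markers tested also differed between the diets in their weaning change, at -3.27 to -2.10. Of other markers, 1 of 5 proximal ones met the standard upward. Of 8 lymphocyte and 4 inflammation markers tested, 1 each met it downward. The part of all these markers was not tested.

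For SLC30A5 the difference between the maternal diets in the weaning change was 0.68 on the log2 scale (limma interaction, adjusted p = 0.299). Its unadjusted P was under 0.05, and it lay inside the fold limit and so missed the standard. It was -0.64 in control and 0.03 in resveratrol litters, with W_Con alone above the other groups. The difference was 0.40 without W_Res2 and W_Res3. The smooth muscle markers moved in the same test as given above, and at 21 days the T cell markers CD3E and CD3D were lower in W_Res than in W_Con, at -1.78 and -1.97. Their part was not tested. Neither difference passed the adjustment over all genes, of which 13.7% had an unadjusted P under 0.05 in this test.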

How the results depend on the processing

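Of 600 repeats of 32 log2 fold changes of members, 563 kept their direction and their side of the standard. In control litters and over all libraries the numbers of members that met the standard did not move by over 1.5 times. In resveratrol litters 1 member met it, not 2, after median-of-ratios rescaling, in the Ballgown-style model and without W_Res2 and W_Res3, and 1 to 2 when single libraries were left out. At 21 days the number of 2 became 0 after median-of-ratios rescaling, 1 with no filter, quantile normalization, the Ballgown-style model, all 12 libraries in 1 fit or without W_Res2 and W_Res3, and 0 to 2 without single libraries. At 28 days it was 0 to 1 without single libraries. Over both ages the number of 1 became 0 in the Ballgown-style model and without W_Res2 and W_Res3, and 0 to 1 without single libraries. The causes were not tested.

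In the Ballgown-style model MT2A missed the standard after weaning, at 3.68 in control and 4.88 in resveratrol litters. SLC30A5 in resveratrol litters was -0.30 in the Ballgown-style model, -0.24 without W_Res2 and W_Res3, and -0.07 to 0.17 without single libraries (-0.06 without W_Res2, -0.01 without W_Res3). SLC30A2 over all libraries was -0.01 (PW_Con1) to 0.26 without single libraries. The difference between diets was -0.45 for SLC39A4 in the Ballgown-style model, and for MT2A -0.35 without W_Res1, -0.53 without PW_Res1 and -0.85 (PW_Con3) to 1.02 without single libraries. MT2A over all libraries had limma adjusted p of 0.0167 to 0.153.

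Control piglets of both ages may be littermates, but no label says that a replicate number marks a litter, and deviations of same-numbered libraries correlated at -0.26 to 0.30, so the numbers were not taken as pairs. With the replicate block 1 member met the standard at 21 days, not 2. The block changed no other number.

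Rescaling moved the median of all genes in resveratrol litters by 0.16 (median-of-ratios) or 0.179 (quantile) and in the difference between diets by 0.14 or 0.161. The share of genes called higher went from 20.9% to 42.6% or 46.9% in resveratrol litters, from 53.2% to 68.8% or 65.0% over all libraries, from 66.8% to 56.6% or 49.5% at 21 days, from 47.3% to 58.9% at 28 days and from 23.3% to 40.7% or 45.7% for the difference between diets (here the difference). A pseudocount of 0.1 lowered this share to 14.5% in resveratrol litters, 26.7% over all libraries and 32.6% at 28 days, and gave 69.4% at 21 days. With that pseudocount the genes called went from 418 to 853 in control litters, 618 to 1163 in resveratrol litters, 173 to 539 over all libraries, 590 to 1008 and 224 to 488 at 21 and 28 days, and 115 to 351 over both ages. With a filter at 5 FPKM they were 227, 245, 115, 248, 122 and 75 in turn, and 364 in place of 1000 for the difference. The Ballgown-style model called 230 in resveratrol litters, 178 and 342 at the 2 ages and 291 for the difference. Leaving out 1 library gave 388 (W_Res2) to 1049 (W_Res1) in resveratrol litters, 896 (W_Res1) and 944 (W_Res3) at 21 days, 426 (PW_Res1) at 28 days and 633 (W_Con3) for the difference. With no counts, the precision of low genes such as SLC30A2 is unknown.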

Other observations

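KLF4, a transcription factor of differentiated villus cells, was read from the list of metallothionein regulators and zinc sensing genes, and is named after its values were seen. It was at 12.1 to 15.9 FPKM in the 6 sucking piglets and at 18.5 to 22.7 FPKM in the 6 weaned piglets, without overlap, which was so for 1.58% of all genes tested. The log2 fold change was 0.58 in either kind of litter and when all 12 libraries were fitted (SE 0.11 in that fit, limma adjusted p = 0.0691), short of the fold limit. None of the 5 genes tested from that list met the standard in a weaning comparison, and 1, KLF4, had an unadjusted P under 0.05 in each, against 17.7%, 13.3% and 16.9% of all genes in control litters, resveratrol litters and both.

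Across the 12 libraries, MT2A was lower where SLC39A4 and SLC30A5 were higher, with a Pearson's r of -0.72 for each pair on the log2(FPKM + 1) scale. SLC39A4 and SLC39A14 had an r of 0.68. These libraries share age groups and maternal diets, so that the values describe the libraries only.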
